A study of Danio rerio with 2 samples.

Results

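Transcripts of 10 genes that act on mRNA stability or on the N6-methyladenosine (m6A) mark were examined in RNA that had been immunoprecipitated with Flag-tagged Cpeb1b from zebrafish embryos and sequenced (RNA immunoprecipitation sequencing, RIP-seq). They are mettl3, ythdf1, ythdf2, ythdf3, igf2bp1, igf2bp3, ybx1, elavl1a, khdrbs1a and ncl. Members were taken by Ensembl gene name in any letter case, and all 10 names were found, each on 1 of the 33737 genes in the deposited table. Symbols below are written as the name table gives them. The series has 1 group of 2 samples, described as biological replicates. Its wild-type embryos had received Flag-cpeb1b mRNA by injection and were lysed at 16 h post-fertilization (hpf), in mid-somitogenesis; the RNA left on anti-FLAG magnetic beads was fragmented and made into libraries with a small-RNA kit. The precipitated protein was therefore made from injected mRNA in whole embryos, and all tissues were pooled. An input, a control precipitate or uninjected embryos were not analysed here, so every value is a level of an mRNA in the precipitate and not an enrichment, and it says nothing of the level of the encoded protein.

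m6A is placed on mRNA in the nucleus by a methyltransferase complex whose catalytic subunit is Mettl3, and it can be removed by the demethylases Fto and Alkbh5. Proteins that bind the mark decide much of its effect: YTHDF proteins are mainly linked to decay of the marked mRNA, and IGF2BP proteins to its protection. In the early zebrafish embryo these proteins, together with Ybx1 and the AU-rich element-binding protein Elavl1a, take part in keeping or clearing the mRNAs that the mother loaded into the egg. Cpeb1b itself is one of the CPEB family of RNA-binding proteins, which recognise cytoplasmic polyadenylation elements near mRNA 3′ ends and regulate the poly(A) tail and translation.

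The authors deposited RPKM values, a read count scaled to gene length and library size, already averaged over the replicates, so no SD between replicates could be computed and no test between samples was possible. The smallest steps in the table correspond, if the value is the plain mean of 2 libraries, to read totals of 6576775 and 6551358. On that basis a gene at RPKM 1 had about 13.1 reads in each kilobase when the libraries are added. Intervals below are 95% exact Poisson intervals for a gene model of 1 kb; they cover counting error only, would be narrower for a longer gene model, and hold no replicate error. A check of 16 marker rows found 15 at RPKM 1 or more. The rows were markers of embryonic tissues, apart from the maternal or oocyte gene ZAR1 (4.15 RPKM). The following were among the 15. The epidermal keratin krt4 had 319 RPKM, the muscle actin actc1a 33.3 RPKM and the neural factor SOX3 21.2 RPKM. The notochord factor noto had 13.7 RPKM and the endothelial factor etsrp 4.56 RPKM. The germ cell gene NANOS3, at 0.540 RPKM, was the row under 1, while the other germ cell gene, DDX4, had 1.46 RPKM. The blood gene gata1a was close to the cut-off, at 1.12 RPKM. Of all genes, 38.6% reached RPKM 1. The entry zp3, also a maternal or oocyte gene, had no matching name.

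All 10 genes reached RPKM 1, which 38.6% of all genes did, and 6 of the 10 reached RPKM 10, which 6.82% of all genes did. Among genes with a symbol, to which the 10 belong, 46.8% reached RPKM 1 and 7.79% reached RPKM 10. Their levels ranged 95.1-fold, between 3.46 RPKM for METTL3 and 329 RPKM for YBX1. The median of the 10 was 23.4 RPKM, against 0.507 RPKM over all genes and 3.14 RPKM over the genes at RPKM 1 or more. That median lies in a gap of the order, between IGF2BP3 at 36.8 RPKM and YTHDF2 at 10.1 RPKM, and without ncl it was 10.1 RPKM. All 10 stood above the median of the genes at RPKM 1 or more, a level that 19.3% of all genes exceeded. Counting error for a gene model of 1 kb did not separate METTL3 (interval 2.53 to 4.62 RPKM) or YTHDF3 (interval 2.64 to 4.77 RPKM) from that median. The 10 genes were chosen with earlier results of these data known, so these counts describe them and are no test.

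**Figure D1:**
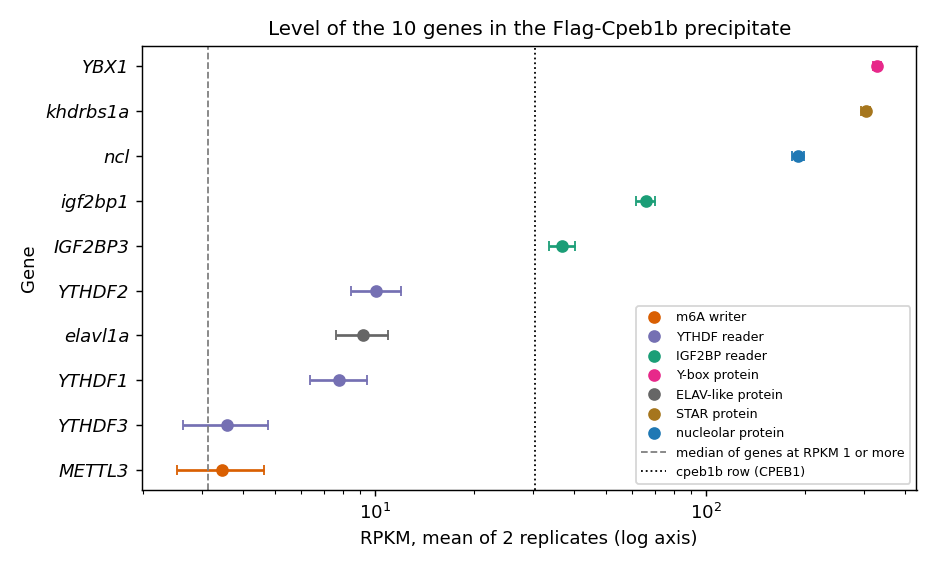
Level of each of the 10 genes in the Flag-Cpeb1b precipitate, as the authors' mean RPKM of 2 replicates on a log axis, coloured by role, with 95% Poisson intervals for a 1 kb gene model (counting error only). The dashed line is the median of genes at RPKM 1 or more (3.14 RPKM) and the dotted line the cpeb1b row (30.5 RPKM). YBX1, khdrbs1a and ncl lie above 100 RPKM, and METTL3 and YTHDF3 lie just above the dashed line with intervals that cross it.

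The methyltransferase gene METTL3 (ENSDARG00000012827) was the lowest of the 10, at 3.46 RPKM with a counting interval of 2.53 to 4.62 RPKM. It held rank 6015 in the table, above 82.2% of genes, and about 45.4 reads per kilobase. The list of other writer genes was not limited to the Mettl3 complex. Its 11 entries gave 9 rows, with a median of 2.97 RPKM over all 9. Of these rows 8 were at RPKM 1 or more, which 38.6% of all genes and 46.8% of genes with a symbol were. METTL3 lay below 4 and above 5 of these rows. ZC3H13, a scaffold that holds the complex in the nucleus, was highest with 15.2 RPKM. METTL14, the partner that binds RNA beside Mettl3, had 6.40 RPKM, 1.85 times the METTL3 level, with a counting interval of 1.28 to 2.74 for that ratio. The adaptor WTAP had 4.46 RPKM and RBM15B, which guides the complex to its sites, had 3.50 RPKM. METTL16, a separate methyltransferase that acts on U6 RNA and on few mRNAs, had 0.651 RPKM and was the writer row under 1. The entries cbll1 and zcchc4 had no matching name and were not assessed.

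Of the demethylase genes, FTO had 2.18 RPKM and lay above 74.9% of all genes. ALKBH5 had 0.489 RPKM, or about 6.42 reads per kilobase, and lay above 49.3% of them. Thus 1 of 2 erasers reached RPKM 1, which 38.6% of all genes did. Neither exceeded any of the 10 genes.

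Transcripts of the cytoplasmic YTHDF readers were recovered at intermediate levels. YTHDF2 (ENSDARG00000014498), whose protein recruits deadenylases to m6A-marked mRNAs and in the zebrafish embryo helps clear maternal mRNA, had 10.1 RPKM, with a counting interval of 8.45 to 11.96 RPKM. YTHDF1 (ENSDARG00000016447), described in mammalian cells as a promoter of translation, had 7.79 RPKM, with an interval of 6.35 to 9.45 RPKM. YTHDF3 (ENSDARG00000057939), a partner of both in mammalian cells, had 3.59 RPKM, with an interval of 2.64 to 4.77 RPKM. They lay above 93.2%, 91.2% and 82.6% of all genes, in that order. Of the 21.5 RPKM that they summed to, YTHDF2 made up 47.0%, YTHDF1 36.3% and YTHDF3 16.7%.

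For a gene model of 1 kb, counting error did not separate YTHDF2 from YTHDF1, with a ratio of 1.30 and an interval of 0.992 to 1.69. That interval only just held 1 and would be narrower for longer gene models. Whether the 2 levels differ beyond counting error therefore depends on the assumed length. YTHDF3 stood below both. YTHDF2 was 2.81 times YTHDF3 (interval 2.00 to 4.01), and YTHDF1 was 2.17 times YTHDF3 (interval 1.52 to 3.13). How the authors treated reads that align to several places is not given in the sources used here, so reads from stretches that these related genes share could have been assigned to either.

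The igf2bp1 and IGF2BP3 transcripts were recovered at higher levels than those of the YTHDF readers. These proteins carry KH domains, bind m6A-marked mRNA and protect it from decay; Igf2bp3 is needed to keep maternal mRNAs stable in the zebrafish embryo. The igf2bp1 gene (ENSDARG00000061478) had 65.8 RPKM, with a counting interval of 61.5 to 70.4 RPKM, at rank 390 and above 98.8% of all genes. IGF2BP3 (ENSDARG00000010266) had 36.8 RPKM, with an interval of 33.5 to 40.2 RPKM, at rank 650 and above 98.1% of them. The igf2bp1 level was 1.79 times that of IGF2BP3 (interval 1.60 to 2.00). IGF2BP2, the remaining member of the family and not one of the 10, had 6.37 RPKM, below YTHDF2 and YTHDF1. The igf2bp1 level was 10.3 times that of IGF2BP2 (interval 8.21 to 13.0) and the IGF2BP3 level 5.77 times (interval 4.55 to 7.34). Zebrafish have igf2bp2a and igf2bp2b, and the name table gives the single row IGF2BP2 with no suffix, so this value belongs to a paralogue that is not specified. Of the summed family level of 109 RPKM, igf2bp1 held 60.4%, IGF2BP3 33.7% and IGF2BP2 5.85%.

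**Figure D2:**
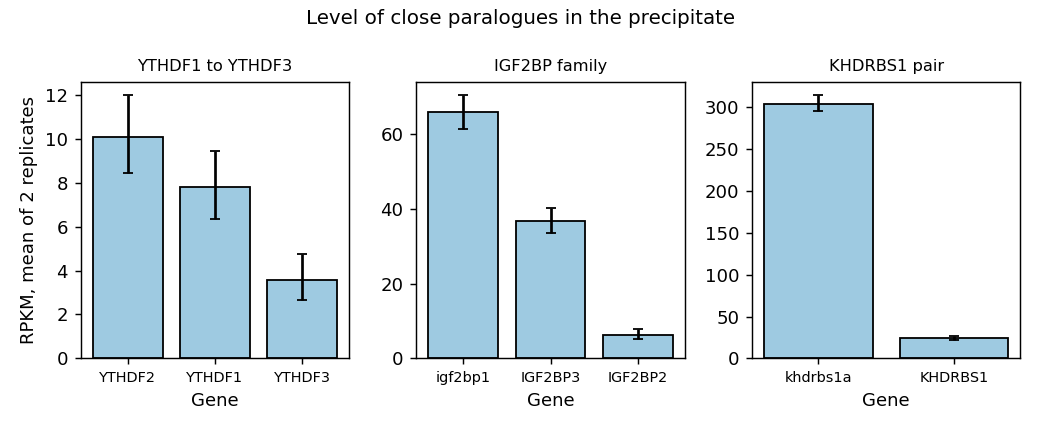
Mean RPKM of 2 replicates (linear axes from 0, each with its own scale) for the YTHDF readers, the IGF2BP family and the KHDRBS1 pair, with 95% Poisson intervals for a 1 kb gene model as error bars. YTHDF3 at 3.59 RPKM, IGF2BP2 at 6.37 RPKM and KHDRBS1 at 24.2 RPKM are the lowest of their panels, and the intervals of YTHDF2 and YTHDF1 overlap.

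Other m6A readers, from a list of 8 entries, gave 5 rows, with a median of 6.37 RPKM. All 5 were at RPKM 1 or more, a level reached by 38.6% of all genes and 46.8% of genes with a symbol. The hnRNP gene hnrnpc, whose product binds sites that m6A opens in the RNA fold, had 34.1 RPKM. The nuclear reader YTHDC1, which acts in splicing and export, had 14.4 RPKM, above each of the cytoplasmic YTHDF genes. IGF2BP2, given above, was next, followed by prrc2a at 6.20 RPKM, and FMR1, the fragile X gene, was lowest with 3.21 RPKM. The entries ythdc2 and hnrnpa2b1 had no matching name and were not assessed.

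YBX1 (ENSDARG00000004757) was the highest of the 10. Its product, a cold-shock domain protein that packages mRNA and in the zebrafish embryo controls maternal mRNA stability and translation, binds a wide range of transcripts. It had 329 RPKM, with a counting interval of 319 to 339 RPKM, at rank 78 of 33737 genes and rank 37 of the 21939 genes with a symbol. Only igf2bp1, IGF2BP3, ncl and khdrbs1a of the other 9 also exceeded the row of cpeb1b, the transcript of the precipitated protein (the row named CPEB1, 30.5 RPKM; the name cpeb1a stands on another row), and YBX1 was 10.8 times that row. Reads from injected and endogenous cpeb1b are not separated in the table. The 5 measured rows of the cold-shock and Y-box list had a median of 4.51 RPKM, and all lay below YBX1. All 5 were at RPKM 1 or more, a level reached by 38.6% of all genes and 46.8% of genes with a symbol. LIN28A, which blocks let-7 maturation, stood on 2 rows with 18.0 and 3.06 RPKM, and its paralogue LIN28B had 4.51 RPKM. The entries ybx2 and ybx3 had no matching name and were not assessed.

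The elavl1a gene (ENSDARG00000038695) encodes the zebrafish counterpart of HuR, which binds AU-rich elements and stabilises the mRNAs that carry them. It had 9.20 RPKM, with a counting interval of 7.63 to 10.99 RPKM, at rank 2499 and above 92.6% of genes. In the order of the 10 it fell between YTHDF2 and YTHDF1. Counting error for a gene model of 1 kb did not separate it from either. YTHDF2 was 1.10 times elavl1a (interval 0.846 to 1.41), and elavl1a was 1.18 times YTHDF1 (interval 0.904 to 1.56). Of the 3 measured rows among its relatives, 1 was at RPKM 1 or more, which 38.6% of all genes and 46.8% of genes with a symbol were. The neuronal gene ELAVL3 had 17.1 RPKM, while ELAVL4 had 0.713 RPKM and ELAVL2 0.135 RPKM. The entry elavl1b had no matching name and was not assessed.

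The khdrbs1a gene (ENSDARG00000052856) was second, with 304 RPKM, a counting interval of 295 to 314 RPKM and rank 89. It encodes a relative of mammalian Sam68, a STAR-family KH-domain protein of splicing and mRNA metabolism. A separate row named KHDRBS1 (ENSDARG00000070475) had 24.2 RPKM and was taken as the entry khdrbs1b after removal of the suffix. The khdrbs1a level was 12.6 times that of this row (interval 11.2 to 14.2), and khdrbs1a held 92.6% of their sum. YBX1 was 1.08 times khdrbs1a (interval 1.04 to 1.13), a difference beyond counting error that cannot be set against replicate error. The KH-domain and STAR list held 8 rows, with a median of 4.61 RPKM over all 8. Of these rows 5 were at RPKM 1 or more, which 38.6% of all genes and 46.8% of genes with a symbol were. After KHDRBS1 the highest of the list were KHSRP, a factor of AU-rich element decay, at 17.8 RPKM, and HNRNPK, on 2 rows with 10.1 and 7.62 RPKM. KHDRBS2 had 0.405 RPKM, the quaking gene qkia 0.0975 RPKM, and pcbp3 was listed at 0. The entries khdrbs3 and pcbp2 had no matching name and were not assessed.

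Nucleolin, encoded by ncl (ENSDARG00000002710), is an abundant nucleolar protein of ribosome biogenesis that in mammalian cells also binds and stabilises some mRNAs. Its transcript had 189.8 RPKM, with a counting interval of 182 to 197 RPKM, at rank 132. The khdrbs1a level was 1.60 times that of ncl (interval 1.52 to 1.69), and ncl was 2.88 times igf2bp1 (interval 2.67 to 3.12). Nucleolar partners were high as well: all 4 measured rows were above RPKM 10, a level that 6.82% of all genes reached. They were npm1a at 121 RPKM, FBL at 95.2 RPKM, DKC1 at 86.0 RPKM and NOP56 at 85.7 RPKM. The entry nop58 had no matching name and was not assessed. The ncl level was 1.56 times that of npm1a (interval 1.47 to 1.67), the nucleophosmin gene. In the RefSeq gene table (assembly GRCz12tu) 2 snoRNA genes lie inside ncl. Whether reads of such small RNAs were counted to ncl was not tested. Genes that lie inside the nucleolar partners were not looked up.

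Close neighbours of the other genes were read from the same table, whose build differs from the authors' Zv9. Counting ncl, 5 of the 10 genes overlap another gene there. Each protein-coding partner of the remaining 4 was below its member. ARHGEF16 had 1.28 RPKM against 329 RPKM for YBX1, and PEX19 had 2.61 RPKM against 9.20 RPKM for elavl1a. POP7 had 1.36 RPKM against 3.46 RPKM for METTL3. The partner of IGF2BP3 (36.8 RPKM) is pals2b, and the name table gives 2 rows PALS2 without a suffix, at 2.94 and 3.75 RPKM. Which of these rows is the neighbour is not specified. YBX1 and METTL3 also overlap a lncRNA gene each, for which no level was assigned. The use of strand in the authors' counting is not given in the sources used here, so reads from overlapping genes cannot be told apart.

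The remaining list, of other mRNA stability factors, gave 22 rows from 22 entries, 2 of which had no matching name; the symbols ZFP36L1, CAPRIN1 and PTBP1 stood on 2 rows each. All 22 rows were at RPKM 1 or more and 10 were at RPKM 10 or more, with a median of 9.58 RPKM. Of all genes, 38.6% reached RPKM 1 and 6.82% RPKM 10, and of genes with a symbol 46.8% and 7.79%. HNRNPAB, an hnRNP of mRNA transport and translation, had 200.4 RPKM and was the row of the other pathway lists that came nearest to khdrbs1a. SYNCRIP, an hnRNP that binds poly(A) and coding-region stability elements, had 72.9 RPKM. TENT4A, a poly(A) polymerase whose mixed tails shield mRNAs from deadenylation in mammalian cells, had 48.8 RPKM, and the stress-granule protein gene CAPRIN1 had 33.5 RPKM on the higher of its 2 rows. Over the 8 lists together, the median was 6.76 RPKM. At RPKM 1 or more were 51 of 58 rows (87.9%), against 46.8% of genes with a symbol. The 7 rows under RPKM 1 were METTL16, ALKBH5, ELAVL4, ELAVL2, KHDRBS2, qkia and pcbp3. None of the 58 exceeded YBX1 or khdrbs1a, and HNRNPAB alone exceeded ncl. HNRNPAB had about 2630 reads per kilobase against 2491 for ncl, and no counting interval was computed for that pair.

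**Figure D3:**
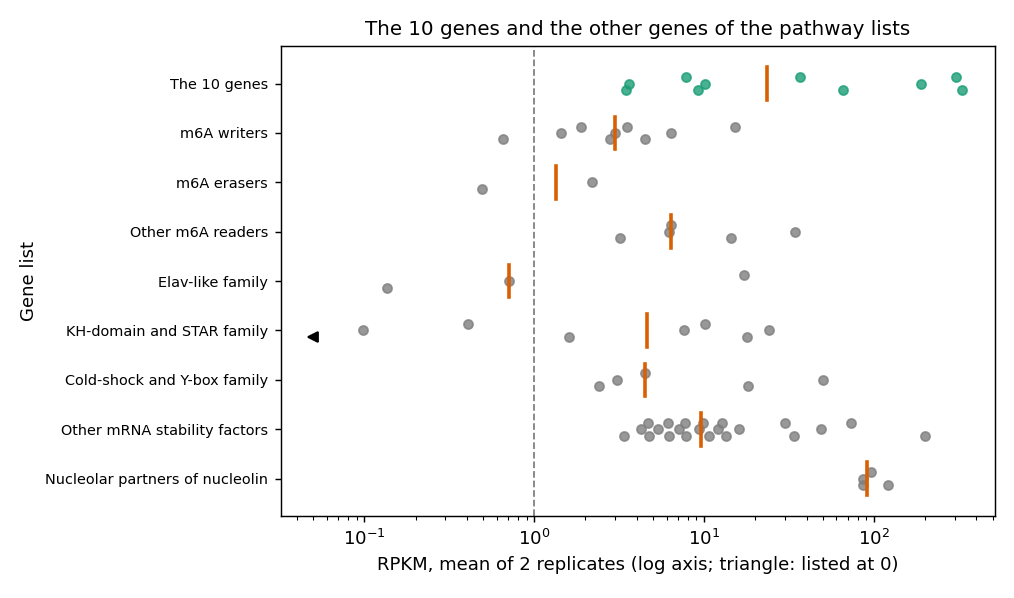
Mean RPKM of 2 replicates on a log axis for the 10 genes (green) and for each gene row of the 8 pathway lists (grey); the orange bar is the median over all rows of a list, the dashed line is RPKM 1, and the triangle is pcbp3, listed at 0. The 10 genes span 3.46 to 329 RPKM, the nucleolar list lies between 85.7 and 121 RPKM, and the 7 rows left of the dashed line belong to the writer, eraser, Elav-like and KH-domain lists.

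Across the order of the 10, counting error for a gene model of 1 kb separated YBX1, khdrbs1a, ncl, igf2bp1 and IGF2BP3 from each other. It also separated IGF2BP3 from YTHDF2, with a ratio of 3.64 (interval 3.01 to 4.47), and YTHDF1 from YTHDF3. It did not separate YTHDF3 from METTL3, whose ratio was 1.04 (interval 0.679 to 1.61). The 3 highest genes held 85.8% of the 960 RPKM that the 10 summed to, and YBX1 was 95.1 times METTL3 (interval 71.6 to 132). The 10 together made up 0.0936% of the RPKM total of the table, a share of summed RPKM in which short gene models weigh more than their reads. The share was 0.464% when the 10 highest genes of the table were left out of the total and 0.274% of the total over genes with a symbol. Most of the RPKM total thus lay in those 10 highest genes, and most of it in genes without a symbol.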

How the data were processed

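RNA from 2 immunoprecipitates of Flag-Cpeb1b was analysed as 1 group. The authors deposited 1 RPKM value per Ensembl gene, averaged over the replicates, per the file name. Tools listed in the submitters' processing notes, without roles, are TopHat2 2.1.1 and Bowtie (aligners), MACS2 2.0.10, bedtools 2.16.2, Trimmomatic 0.36, FastQC and cutadapt, with the Zv9 build. Annotation release, gene lengths, multiple alignments and use of strand: not given in the sources used here.

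Symbols came from a table of gene names (21939 of 33737 genes, 65.0%); list entries were matched directly, else without a paralogue suffix. Of 67 pathway entries 12 had no match. Every member was named, and from each list the 4 highest rows and those under RPKM 1; a gene that this rule names is not reported here. Members and lists were chosen with earlier results of these data known. Depth was read from RPKM values of 0.4 to 2 that stood on 3 or more rows, as steps that give whole lengths within 0.002. The pair found accounted for 135 of 171 rows (78.9%). The search was checked on simulated pairs of libraries whose depths differed more than the 2 found here, so steps this close were not checked. A ratio interval is the exact 95% binomial interval of reads per kilobase. Alternatives changed thresholds, name matching, pseudocounts, ranking sets and totals. Protein and mRNA sequences were not used here. Python 3.11.15, pandas 2.3.3, scipy 1.17.1 and matplotlib 3.10.9 were used.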

Additional observations from a re-analysis of the deposited data

How the results depend on the processing

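All 10 genes were at or above RPKM 0.1 and RPKM 1. At RPKM 5 there were 8, as YTHDF3 and METTL3 dropped out. The share of all genes was 38.6% at RPKM 1 and was not computed at RPKM 0.1 and 5. Most genes pass RPKM 0.1, since ELAVL2 at 0.135 RPKM lay above only 31.8% of all genes. LIN28B, at 4.51 RPKM, lay above 85.5% of them. The median of 23.4 RPKM was 24.2 RPKM with the KHDRBS1 row added and fell to 10.1 RPKM without ncl; both settings were chosen after seeing the data, and the fall follows from the gap in the order of the 10. The median percentage of genes below a member was 95.7% among all genes, 95.2% among genes with a symbol, 94.5% among RefSeq protein-coding symbols and 88.7% among genes at RPKM 1 or more. The lower members moved further. METTL3 lay above 82.2% of all genes but 53.8% of those at RPKM 1 or more. For YTHDF3 these values were 82.6% and 54.9%, and for YTHDF1 91.2% and 77.2%. The share of the RPKM total was 0.464% without the 10 highest genes, 0.274% among genes with a symbol and 0.0751% without ncl, against 0.0936%. A pseudocount of 1 or 0.1 left the 4 ratios within YTHDF and IGF2BP readers inside their counting intervals. Other pathway rows at or above the threshold numbered 56 at RPKM 0.1, 35 at RPKM 5 and 42 with direct names only, against 51. No paired analysis was possible because all samples belong to 1 group. Leaving out a replicate was not run, since the deposited values are means. Depth limits low genes: at RPKM 1 the Poisson error is 27.6% for a model of 1 kb, and at RPKM 10 it is 8.73%.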
